A study of Mus musculus with 5 samples.

Results

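The genes described here carry out DNA replication and cell division. A list of 42 mouse genes was taken, and 41 of them had at least 1 probe set annotated with that gene's symbol alone, among 18202 genes measured in that way. Ccnb1, the cyclin B1 gene, was not analysed here for want of such a probe set. The 41 genes had 92 probe sets, and a gene was represented by whichever of its probe sets had the largest mean. By role, 14 of the 41 serve DNA replication, 3 are cyclins of the G1 phase or of entry into S phase, and 24 serve mitosis.

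Whole liver of 5 inbred mouse strains was measured on Affymetrix Mouse430_2 arrays, with 1 array per strain: RIIIS/J, NZW/LacJ, FVB/NJ, BALB/CByJ and C57BL/6J. Each array held RNA pooled from 3 males aged 10 weeks that had received no treatment, and the labels name no transgene or other allele. The study compared the strains to follow up a locus linked to gene expression. As every strain had a single array, no difference has a replicate check and none could be tested, and precision is limited by how few arrays there are.

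Most hepatocytes of the adult liver are quiescent, and they return to the cycle after loss of tissue or injury. In a dividing cell the MCM helicase is loaded onto origins by Cdc6 and Cdt1 in G1, is activated in S phase, and unwinds DNA ahead of the polymerases. Cyclin-dependent kinases then drive entry into mitosis, where the spindle checkpoint holds back the anaphase promoting complex until every kinetochore is attached. Among resident and passing cells of the liver, immature blood cells and activated lymphocytes also divide.

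A gene was counted as detected where its intensity exceeded 8.22, the 95th percentile of 83 probe sets for odorant, vomeronasal and taste receptors. Lower values were raised to this floor before ratios were taken. A strain was called apart for a gene where its intensity lay 2-fold or more above, or below, that of the nearest other strain. Of the 41 genes, 37 exceeded the floor on 1 array or more and 22 did so on every array. Bub1, Plk1, Ndc80 and Tpx2, which act in the spindle checkpoint, as a mitotic kinase, at the kinetochore and in spindle assembly, were under the floor everywhere. Another 6 genes, namely Ccna2, Ccnb2, Cdk1, Aurka, Mki67 and Cdc6, passed the floor in FVB/NJ only, so a difference in that strain was built into their detection.

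Both the FVB/NJ and RIIIS/J arrays stood apart in genes of other cell types. In FVB/NJ, 8 of the 9 B cell markers with a probe set were apart on the high side, and their summed intensity was 6183 against 77.3 to 85.8 in the other strains, where 5 or 6 of the 9 were at the floor. T and NK cell markers were high there for 5 of 8 (344 against 59.1 to 60.8), neutrophil and marrow markers for 3 of 6 (615 against 39.1 to 77.4), erythroid markers for 4 of 8 (5411 against 1974 to 4398) and macrophage markers for 4 of 10 (6136 against 2469 to 4777). Of 6 stellate cell markers 2 were high in FVB/NJ, namely Acta2 (823 against 58.1 to 77.9) and Pdgfrb (446 against 184 to 213), and the list summed to 2578 against 1126 to 2076. Other members of these lists were not high there. Clec4f and Cd163 of macrophages read 600 against 537 to 1152 and 118 against 95.9 to 282. Alas2 of erythroid cells read 2861 against 1032 to 3444, and Reln of stellate cells 1019 against 718 to 1628. Cd8a of T cells read 14.1 against 14.1 to 14.2, and Mpo, Elane and Ltf were under the floor on every array. In RIIIS/J, 8 of 8 exocrine pancreas markers were high, with a sum of 66829 against 724 to 1305. Hepatocyte markers were apart in no strain (0 of 9) and summed to between 321715 and 390920. The ratio of 3' to 5' signal was 2.76 to 4.98 for beta-actin, highest in FVB/NJ, and 0.90 to 1.01 for Gapdh.

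**Figure D1:**
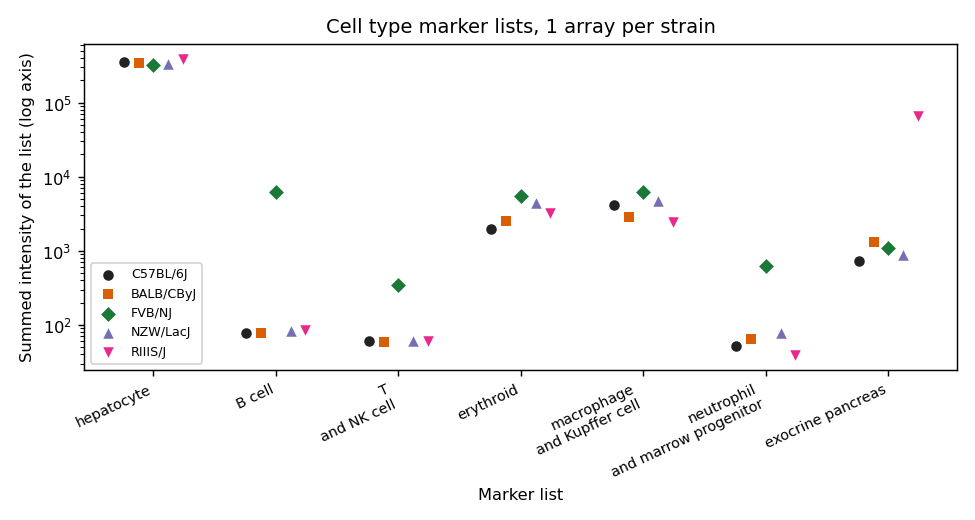
Summed intensity of each cell type marker list (log axis) by list, with 1 point per strain and array. FVB/NJ is the highest point for the 5 blood cell lists, with 6183 for B cells against at most 85.8 elsewhere, and RIIIS/J is the highest for exocrine pancreas at 66829.

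The promoters of the 2 classes of gene carried different short motifs, and a few are shown so that the letters can be set beside the array values. RefSeq windows from 250 bases before to 50 after a gene's start (build GRCm38.p6) were matched by symbol to 34 of the 42 listed genes, Ccnb1 included, and both strands were searched. The motifs were the cell cycle homology region TTTGAA, the CCAAT box, and words of the E2F type, which were TTCCCGC along with TTGGCGC, also TTCGCGC, and lastly TTGCCGC. The E2F words can share letters with each other and, where one on the reverse strand ends in CCAA, with a CCAAT box. The stretches below run 5′ to 3′ on the gene's strand, end before the gene's outermost RefSeq start, and have every match in capitals. The first 3 are mitosis genes high in FVB/NJ, the next 2 are replication genes high in FVB/NJ, and Spc25 is a kinetochore gene high in BALB/CByJ.
Mki67: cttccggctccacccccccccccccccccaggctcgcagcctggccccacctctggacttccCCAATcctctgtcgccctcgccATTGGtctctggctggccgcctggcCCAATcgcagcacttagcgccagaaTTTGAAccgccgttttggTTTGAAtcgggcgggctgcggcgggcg
Ube2c: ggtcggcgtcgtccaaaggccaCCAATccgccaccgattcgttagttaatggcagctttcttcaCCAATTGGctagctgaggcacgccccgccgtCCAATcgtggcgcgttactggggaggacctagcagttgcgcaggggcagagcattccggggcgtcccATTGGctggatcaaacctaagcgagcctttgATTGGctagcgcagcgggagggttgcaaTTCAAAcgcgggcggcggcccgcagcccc
Cdk1: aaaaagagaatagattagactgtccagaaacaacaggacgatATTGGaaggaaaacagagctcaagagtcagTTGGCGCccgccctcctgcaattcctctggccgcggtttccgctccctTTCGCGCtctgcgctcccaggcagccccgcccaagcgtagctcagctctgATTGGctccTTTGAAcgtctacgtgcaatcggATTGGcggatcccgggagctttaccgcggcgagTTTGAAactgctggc
Mcm5: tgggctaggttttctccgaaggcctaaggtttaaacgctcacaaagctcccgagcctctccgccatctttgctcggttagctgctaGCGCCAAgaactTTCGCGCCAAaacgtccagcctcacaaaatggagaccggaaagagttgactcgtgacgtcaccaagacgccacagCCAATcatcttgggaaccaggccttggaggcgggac
Mcm6: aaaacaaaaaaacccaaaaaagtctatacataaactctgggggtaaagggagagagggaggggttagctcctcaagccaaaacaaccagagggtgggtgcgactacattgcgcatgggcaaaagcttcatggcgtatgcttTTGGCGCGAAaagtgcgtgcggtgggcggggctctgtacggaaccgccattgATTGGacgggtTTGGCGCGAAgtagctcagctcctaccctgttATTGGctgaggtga
Spc25: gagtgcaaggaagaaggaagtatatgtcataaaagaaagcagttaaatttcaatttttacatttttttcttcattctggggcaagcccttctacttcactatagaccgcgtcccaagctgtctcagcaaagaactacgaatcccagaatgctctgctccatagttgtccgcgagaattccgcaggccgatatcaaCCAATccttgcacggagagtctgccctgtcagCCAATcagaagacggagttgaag

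These stretches lie at chr7:135716451-135716629, minus strand for Mki67, chr2:164769679-164769928, plus strand for Ube2c and chr10:69352913-69353162, minus strand for Cdk1. Those of the others lie at chr8:75109259-75109467, plus strand for Mcm5, chr1:128359706-128359955, minus strand for Mcm6 and chr2:69206214-69206463, minus strand for Spc25. Mki67 holds TTTGAA 2 times and Cdk1 2 times, and Ube2c holds it once on the reverse strand. Mcm5 has 3 and Mcm6 has 4 E2F type words here and no TTTGAA. Cdk1, a mitosis gene, also has 2 E2F type words, and the window of Mki67 has 1 that starts at base -67, past the stretch shown. Spc25 has 2 CCAAT boxes and its TTTGAA starts at base 25 after the start, past the stretch shown.

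Over all windows of the mitosis genes TTTGAA was found in 15 of 21 (71.4%), against 2 of 12 replication genes (16.7%) and 18.1% of the 27025 windows in the table. E2F type words were found in 8 of 12 replication genes (66.7%), 3 of 21 mitosis genes (14.3%) and 9.69% of all windows. CCAAT boxes were found in 9 of 12 and 16 of 21, against 37.9% of all windows. Among the genes high in FVB/NJ, 5 of 6 mitosis genes with a window held TTTGAA and 7 of 8 replication genes held an E2F type word. Among the remaining genes these numbers were 10 of 15 and 1 of 4. The remaining genes include Ccnb1, which was not measured, and Bub1, Plk1 and Ndc80, which were under the floor on every array. The reference genome is that of C57BL/6J, the sequence of the other strains was not read, and a match is a run of letters and no measured site.

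**Figure D2:**
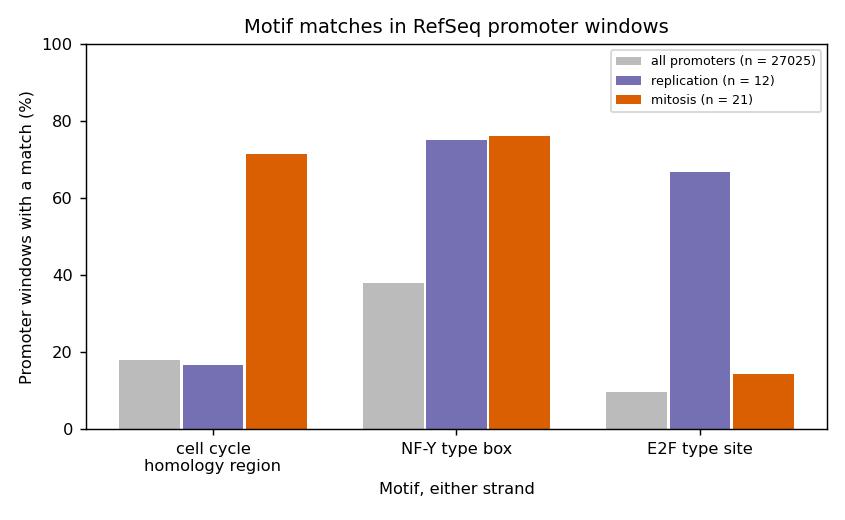
Percent of RefSeq promoter windows with a match on either strand, for the cell cycle homology region, the NF-Y type box (CCAAT) and E2F type words, with bars for all 27025 windows, the 12 replication genes and the 21 mitosis genes. The homology region is at 71.4% in mitosis genes against 16.7% in replication genes, and the E2F type words are at 14.3% against 66.7%.

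Most of the listed genes of helicase loading were high in FVB/NJ. Among these 8 genes, 7 were apart on the high side in that strain, against 5.75% of all detected genes. Their FVB/NJ deviation from the mean of the other strains had a median of 2.51 on the log2 scale. The origin recognition genes Orc1 to Orc6, read with the other cell cycle genes below, were apart in no strain. Mcm5, a subunit of the MCM ring, read 94.3 in C57BL/6J, 92.5 in BALB/CByJ, 635 in FVB/NJ, 60.9 in NZW/LacJ and 90.7 in RIIIS/J, so that FVB/NJ was 6.73-fold above the nearest strain. Mcm2 read 10.1, 10.4, 63.7, 10.3 and 10.4 in the same order of strains (6.15-fold). The other 4 strains were close together for Mcm2, and NZW/LacJ was the lowest for Mcm5.

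Mcm4 read 45.8, 50.8, 259, 28.2 and 47.0 in that same order (5.10-fold). Mcm3 read 27.2, 27.2, 113, 14.0 and 16.3 (4.16-fold), and Mcm7 read 268, 290, 841, 380 and 310 (2.21-fold). On their chosen probe sets all 6 subunits of the ring were thus at least 2-fold higher in FVB/NJ than in any other strain, the smallest ratio being that of Mcm7. Of the further probe sets that were detected, those of Mcm2, Mcm4, Mcm5 and Mcm6 were also at least 2-fold above. Mcm3 had 1 at 1.97-fold, and Mcm7 had some at only 1.28-fold and 1.33-fold. Mcm3, Mcm5 and Mcm6 each had at least 1 other that was under the floor on every array.

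Mcm6 set BALB/CByJ apart as well. It read 90.5 in C57BL/6J, 38.2 in BALB/CByJ, 298 in FVB/NJ, 120 in NZW/LacJ and 90.5 in RIIIS/J. FVB/NJ was 2.49-fold above and BALB/CByJ 2.37-fold below its nearest neighbour. A further probe set gave the same order at both ends, with 14.4 in BALB/CByJ, 101 in FVB/NJ and 27.7 to 42.9 in the others, although there BALB/CByJ was 1.93-fold below and missed the threshold.

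Cdt1, which loads the ring with Cdc6, read 30.7, 31.6, 132, 32.1 and 6.64, the last of these in RIIIS/J. FVB/NJ was 4.11-fold above the nearest strain, and RIIIS/J, under the floor, was at least 3.74-fold below. A further probe set of Cdt1 read 9.93 in RIIIS/J against 10.8 to 18.2, and neither end reached 2-fold there. RIIIS/J was also the array with the exocrine pancreas genes, and their part in this result was not tested. Cdc6 read 12.2 in FVB/NJ and 5.77 to 6.25 elsewhere, which gives at least 1.48-fold and no call.

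**Figure D3:**
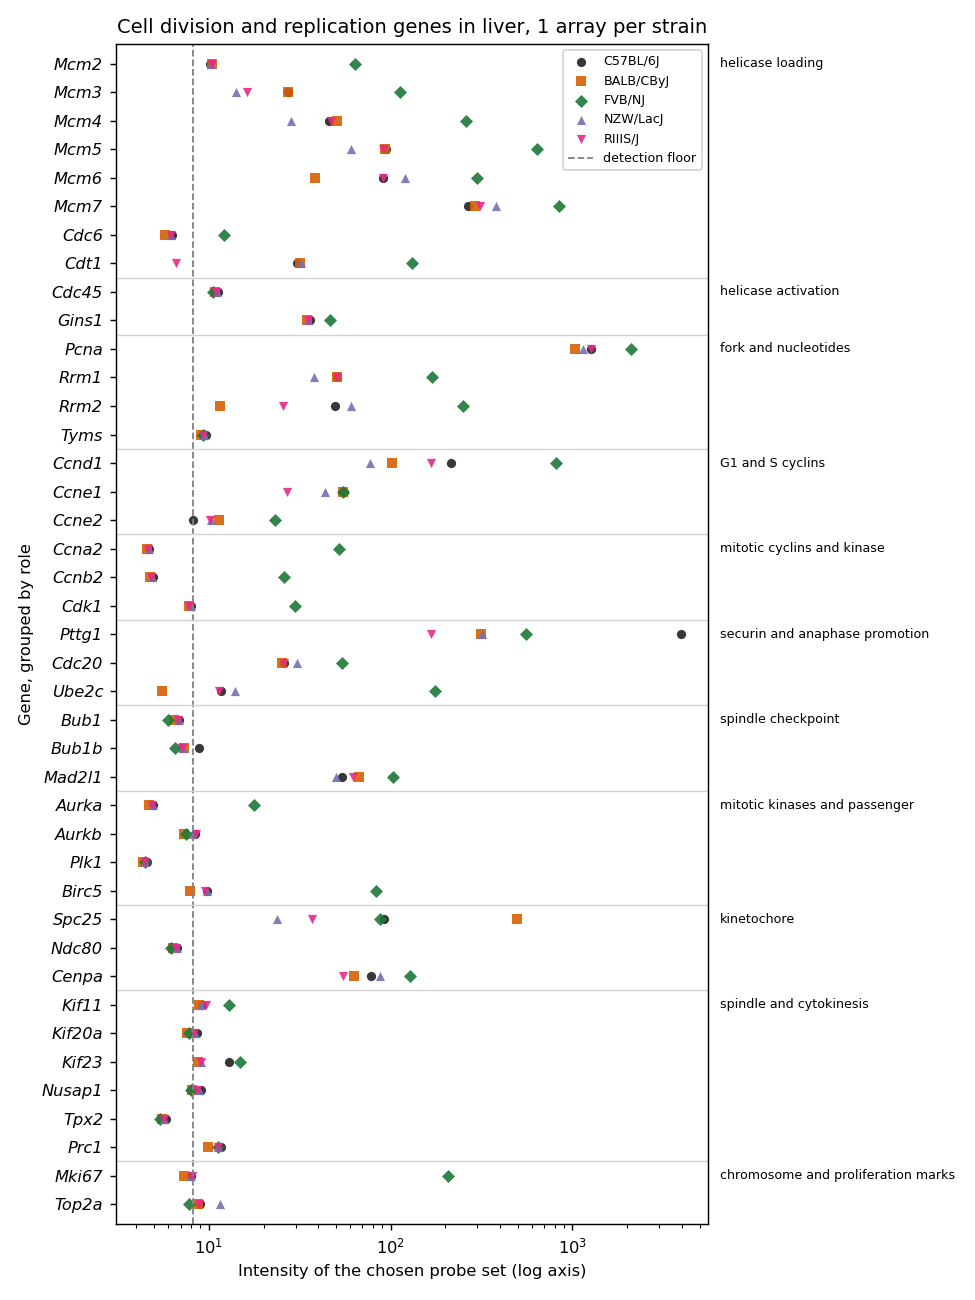
Intensity (log axis) of each of the 41 genes on the 5 arrays, grouped by role, with 1 point per strain and the detection floor of 8.22 as a dashed line. FVB/NJ is the rightmost point for all 6 Mcm genes, C57BL/6J is far to the right for Pttg1 (3948) and BALB/CByJ for Spc25 (494).

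Genes that activate the helicase did not share this pattern. Gins1, part of the GINS complex, read 46.4 in FVB/NJ and 34.9 to 36.0 in the others (1.29-fold), and Cdc45, its partner in the active helicase, read 10.5 to 11.2 over the 5 strains. Pcna, the sliding clamp of the polymerases, was highest in FVB/NJ at 2097 but only 1.66-fold above the next strain, with 1038 to 1260 elsewhere. Tyms, thymidylate synthase, lay near the floor at 9.12 to 9.62.

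Ribonucleotide reductase, which makes the deoxynucleotides, was high in FVB/NJ on the chosen probe sets of both subunits. Rrm2 read 49.4 in C57BL/6J, 11.5 in BALB/CByJ, 251 in FVB/NJ, 60.3 in NZW/LacJ and 25.7 in RIIIS/J, with FVB/NJ 4.17-fold above and BALB/CByJ 2.24-fold below. Rrm1 read 50.8, 50.8, 169, 38.1 and 50.8 (3.32-fold). On a further detected probe set of Rrm1, FVB/NJ read 48.3 and BALB/CByJ 41.9, only 1.15-fold apart, with 24.9 in RIIIS/J as the lowest. A further probe set of Rrm2 had 124 in FVB/NJ against 19.2 to 39.6, but its lowest strain was RIIIS/J and BALB/CByJ read 20.7, so the low call of BALB/CByJ rests on 1 probe set.

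Cyclins of G1 and S phase differed among themselves. Ccnd1, cyclin D1, through which growth signals reach the cycle, read 214 in C57BL/6J, 101 in BALB/CByJ, 814 in FVB/NJ, 77.0 in NZW/LacJ and 166 in RIIIS/J (3.80-fold). FVB/NJ was also the highest strain on its other probe sets, at 419 against 42.1 to 92.9 and at 522 against 58.1 to 205. Ccne2 read 8.19, 11.4, 23.2, 10.3 and 10.2, with FVB/NJ 2.04-fold above, close to the threshold. Ccne1, the other E cyclin, was not high in FVB/NJ (54.5) and was lowest in RIIIS/J at 26.8 against 43.3 to 55.2.

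Of the mitosis genes, 7 of 24 were high in FVB/NJ (5.75% of all detected genes), and for 5 of these the other strains lay under the floor. Among those detected on another array it was 2 of 15, against 4.13% of all such genes. Mki67, the gene of the Ki-67 proliferation antigen that coats mitotic chromosomes, read 7.97 in C57BL/6J, 7.28 in BALB/CByJ, 206 in FVB/NJ, 7.97 in NZW/LacJ and 8.13 in RIIIS/J, at least 25.1-fold. Ube2c, the ubiquitin-conjugating enzyme of the anaphase promoting complex, read 11.6, 5.55, 176, 14.0 and 11.4 (12.6-fold), and Birc5, survivin of the chromosomal passenger complex, read 9.75, 7.90, 82.6, 9.75 and 9.48 (8.47-fold). FVB/NJ stood alone at the top for each, with the other strains at or near the floor.

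The mitotic kinase and its cyclins followed. Ccna2, cyclin A2 of S phase and early mitosis, read 52.3 in FVB/NJ and 4.60 to 4.71 in the others (at least 6.37-fold). Cdk1, the kinase itself, read 29.8 against 7.75 to 8.03 (at least 3.63-fold), Ccnb2, cyclin B2, read 25.8 against 4.77 to 4.90 (at least 3.14-fold), and Aurka, the centrosomal Aurora kinase, read 17.7 against 4.72 to 4.94 (at least 2.16-fold). In each case the other 4 strains were under the floor, so the ratios are lower bounds.

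Other mitosis genes were closer across strains. Cdc20, the activator of the anaphase promoting complex, read 54.1 in FVB/NJ and 25.3 to 30.5 elsewhere (1.78-fold), Mad2l1 of the spindle checkpoint read 103 against 49.8 to 66.9 (1.53-fold), and Cenpa, the centromeric histone, read 128 against 54.6 to 87.6 (1.46-fold). The kinesins Kif11 (12.9 against 8.89 to 9.60) and Kif23 (14.8 against 8.68 to 13.0) were less than 2-fold apart. Bub1b, Aurkb, Kif20a, Nusap1 and Prc1, of the checkpoint, the passenger complex, the spindle and cytokinesis, read between 6.53 and 11.6 on all arrays.

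Top2a, the topoisomerase that disentangles chromosomes, depended on the probe set. Its chosen probe set read 7.80 in FVB/NJ and 8.68 to 11.5 in the others, near the floor. Another probe set read 50.8 in FVB/NJ and 4.72 to 4.82 in the others, at least 6.19-fold. Counting any probe set, 19 of the 41 genes had 1 that was apart on the high side in FVB/NJ. All genes were not counted in this way, so that number has no background to be read against.

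In all, 18 of the 41 genes with a probe set (43.9%) were apart on the high side in FVB/NJ, against 5.75% of the 12042 genes detected on any array. None was apart on the low side there, against 0.531% of all genes. Among genes that were detected on some other array too, so that detection did not rest on FVB/NJ, the count was 13 of 31 (41.9%), against 4.13% of 11657 genes, and among those detected on every array it was 9 of 22, against 3.95%. Within these 31, 9 of 13 replication genes, 2 of 15 mitosis genes and 2 of 3 G1 and S cyclins were high. The median FVB/NJ deviation was 1.93 for replication genes and 0.15 for mitosis genes, against -0.03 for all genes of that kind. This leaves out the mitosis genes detected in FVB/NJ only. Several of the 15 kept, among them Bub1b, Aurkb, Kif20a, Nusap1 and Prc1, read near the floor on all arrays, where a difference is hard to see. Over all detected genes the medians were 1.88 for replication and 0.71 for mitosis, with genes let in by FVB/NJ included.

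FVB/NJ was also the array with 8 of 9 B cell markers high, and with some T cell, neutrophil, erythroid, macrophage and stellate markers high. The part of these cell types in the high replication and mitosis values was not tested. In bulk tissue, more cells of a dividing type and more RNA per cell cannot be told apart. The high genes had 23 further probe sets, of which 9 were at least 2-fold above the nearest strain and another 9, among them those of Ccna2 and Aurka, were under the floor on every array and show no difference. Of the 13 that were above the floor on some other array, 9 were at least 2-fold above the nearest strain in FVB/NJ and 13 were above the mean of the others. They belong to genes already called high in FVB/NJ, so these counts are no independent check.

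**Figure D4:**
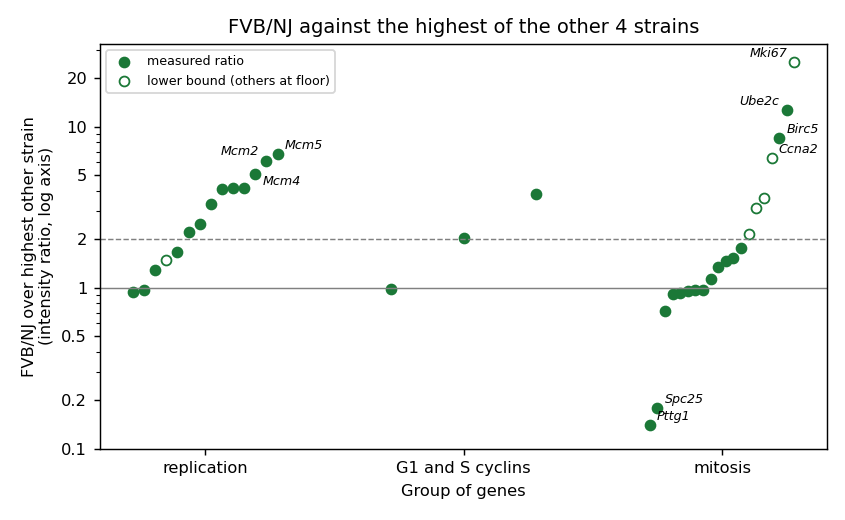
Ratio of the FVB/NJ intensity to the highest of the other 4 strains (log axis) for the 37 detected genes, by group, with open circles for lower bounds and a dashed line at 2. Most replication genes lie above the line, while the mitosis genes range from under 1, with Pttg1 and Spc25 lowest, to Mki67 at 25.1 or more.

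Pttg1 and Spc25 were each high in a strain other than FVB/NJ. Pttg1, the securin gene, whose product holds separase inactive until anaphase, read 3948 in C57BL/6J, 314 in BALB/CByJ, 552 in FVB/NJ, 316 in NZW/LacJ and 166 in RIIIS/J. C57BL/6J was 7.15-fold above the nearest strain, and 12.5-fold without the FVB/NJ array. A further probe set gave 1893 in C57BL/6J, 148 in BALB/CByJ, 296 in FVB/NJ, 212 in NZW/LacJ and 99.97 in RIIIS/J (6.39-fold), and another gave 27.7 against 6.38 to 6.97 (at least 3.37-fold). C57BL/6J was the highest array on all 3 probe sets, and on the 2 brighter ones RIIIS/J was the lowest.

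The neighbours of Pttg1 on its chromosome, chosen by position, did not share its pattern. Slu7, a splicing factor gene beside it, read 223 in C57BL/6J, BALB/CByJ and FVB/NJ, 171 in NZW/LacJ and 343 in RIIIS/J, and Gabrb2, Atp10b and C1qtnf2 were under the floor on every array. The start used for the RefSeq window of Pttg1 lies 1482 bases inside the gene's full span, so the window was not printed. Those of Cdc6, Aurka and Mcm7 lie 442, 316 and 228 bases inside. All of these windows are counted in the motif shares above.

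Spc25, a subunit of the Ndc80 complex that binds microtubules at the kinetochore, read 92.4 in C57BL/6J, 494 in BALB/CByJ, 87.9 in FVB/NJ, 23.7 in NZW/LacJ and 36.8 in RIIIS/J. BALB/CByJ was 5.34-fold above C57BL/6J, and NZW/LacJ and RIIIS/J were lowest. Its other probe set was under the floor on all arrays, so the call rests on 1 probe set. Of its neighbours, Nostrin read 49.7 in BALB/CByJ and 49.3 to 140 elsewhere, Cers6 read 101 to 154 over the 5 strains, Abcb11, the bile salt export pump gene, read 4007 and 1915 to 5574, and G6pc2 was under the floor. BALB/CByJ was the highest strain for none of them.

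**Figure D5:**
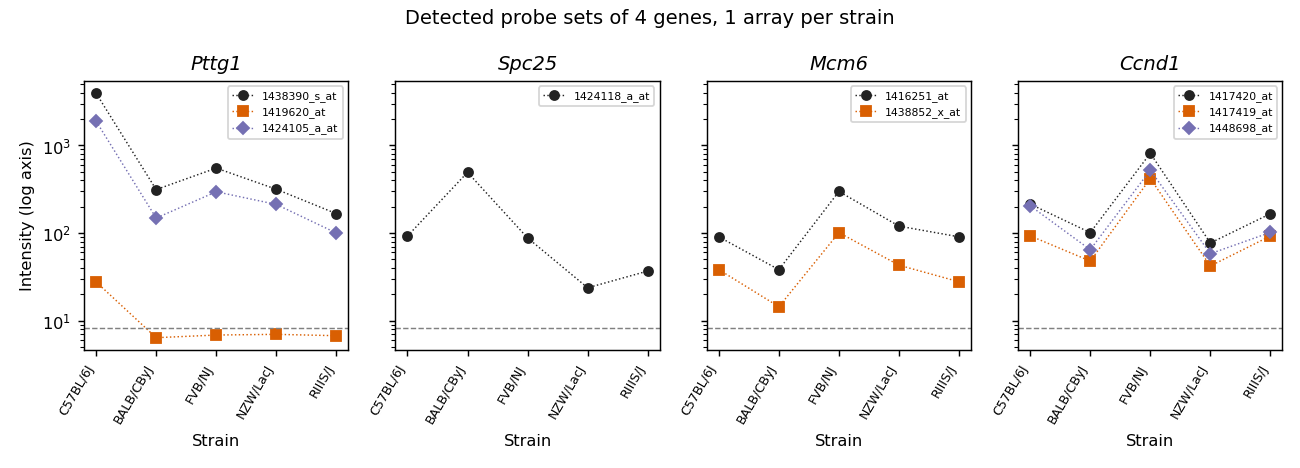
Intensity (log axis) of every detected probe set of Pttg1, Spc25, Mcm6 and Ccnd1 in the 5 strains, 1 line per probe set, with the detection floor dashed. All 3 Pttg1 probe sets peak in C57BL/6J and all 3 Ccnd1 probe sets peak in FVB/NJ, while Spc25 has 1 detected probe set, which peaks in BALB/CByJ at 494.

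Outside FVB/NJ few of the genes were apart. On the high side there was 1 of 37 in C57BL/6J (background 0.49%), 1 in BALB/CByJ (background 0.789%), and 0 in NZW/LacJ (0.756%) and RIIIS/J (0.955%). On the low side there were 2 in BALB/CByJ (0.432%), 1 in RIIIS/J (1.7%), and 0 in C57BL/6J (0.415%) and NZW/LacJ (0.714%). With 1 or 2 genes each, these counts say little about the genes as a group.

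Without the FVB/NJ array, the same 5 calls of Pttg1, Spc25, Mcm6, Rrm2 and Cdt1 remained among 31 genes. That is 1 of 31 high (background 0.635%) and 0 low (0.549%) in C57BL/6J, and 1 high (1.14%) and 2 low (0.669%) in BALB/CByJ. RIIIS/J had 0 high (1.13%) and 1 low (2.03%), and NZW/LacJ had 0 high (0.892%) and 0 low (0.875%). Between the lowest and the highest of those 4 strains Pttg1 spanned 23.7-fold, Spc25 20.8-fold, Rrm2 5.26-fold, Cdt1 at least 3.90-fold, Mcm6 3.14-fold, Ccnd1 2.78-fold and Ccne1 2.06-fold. Ccnd1 was highest in C57BL/6J and Ccne1 lowest in RIIIS/J among them.

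Pairs of these 4 strains differed by at least 2-fold in 3 to 5 of the genes, a larger share than over all genes in each pair. C57BL/6J differed from BALB/CByJ in 5 of 31 (16.1%, against 5.06% of all genes), from NZW/LacJ in 3 of 31 (9.68%, against 7.48%) and from RIIIS/J in 4 of 31 (12.9%, against 9.39%). BALB/CByJ differed from NZW/LacJ in 3 of 30 (10.0%, against 8.63%) and from RIIIS/J in 5 of 30 (16.7%, against 11.2%), and NZW/LacJ from RIIIS/J in 3 of 30 (10.0%, against 7.54%). Apart from the first pair these shares were within 2-fold of the background, and each rests on 5 genes at most. FVB/NJ differed 2-fold or more from C57BL/6J in 20 of 37 (54.1%, against 10.9% of all genes) and from BALB/CByJ in 22 of 33 (66.7%, against 11.5%). It differed from NZW/LacJ in 20 of 36 (55.6%, against 14.6%) and from RIIIS/J in 23 of 36 (63.9%, against 16.8%). These FVB/NJ counts include genes detected through FVB/NJ.

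C57BL/6J held the highest value for more of the genes than the other 3 strains once FVB/NJ was left out. It was highest for 12 of 31 (38.7%, against 25.8% of all genes) and above the mean of the other 3 for 25 of 31 (80.6%, against 54.2%), but the median excess was 0.10 on the log2 scale. With all 5 arrays C57BL/6J was above the mean of the others, which then includes FVB/NJ, for 13 of 37 (35.1%, against 50.6% of all genes). FVB/NJ was highest for 26 of 37 (70.3%, against 23.3% of all genes), a count that includes the 6 genes detected in that strain only. Among the 31 detected elsewhere FVB/NJ was highest for 20 (64.5%, against 20.8% of all genes of that kind).

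Other cell cycle genes were read from lists that hold none of the 42. Of 34 detected replication genes 4 were high in FVB/NJ, and of 31 detected mitosis genes 8 were, against 5.75% of all detected genes. The replication genes were led by Uhrf1, which recruits maintenance methylation to new DNA (63.4 against 7.09 to 7.42, at least 7.72-fold). Timeless, of the fork protection complex, came next (33.4 against 5.48 to 5.55, at least 4.07-fold). Among the mitosis genes were Hmgb2, a chromatin protein of dividing cells (762 against 85.5 to 132, 5.76-fold), and the passenger complex gene Cdca8 (58.8 against 6.28 to 10.8, 5.44-fold). Others were Incenp of the same complex (50.3 against 9.64 to 10.0, 5.02-fold) and Fbxo5, an inhibitor of the anaphase promoting complex (33.2 against 6.73 to 7.15, at least 4.04-fold). Among genes detected on another array, the counts were 2 of 28 for replication and 5 of 26 for mitosis (7.14% and 19.2%, against 4.13% of all genes), and Uhrf1, Timeless and Fbxo5 are not among these. The larger share was thus that of mitosis, unlike the 9 of 13 replication and 2 of 15 mitosis genes of the main list.

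Of 22 detected regulators of the cycle 4 were high in FVB/NJ (18.2%, against 5.75% of all genes), with E2f2, an activating E2F factor, at 59.0 against 7.59 to 8.90 (6.63-fold) and Rbl1, the pocket protein p107, at 38.3 against 8.33 to 8.90 (4.30-fold). Gadd45g, a stress-induced gene, was low there, at 31.4 against 69.7 to 226 (2.22-fold). Of 4 detected CDK inhibitors 1, Cdkn2d, too few to read against that 5.75%, was high in FVB/NJ at 66.4 against 21.3 to 21.7 (3.05-fold).

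In other strains, Fen1, the flap endonuclease of Okazaki fragment processing, was low in BALB/CByJ at 149 against 412 to 611 (2.76-fold), as was the CDK inhibitor gene Cdkn2c at 34.8 against 71.2 to 85.9 (2.04-fold). Ect2, which acts in cytokinesis, was high in NZW/LacJ at 24.5 against 6.79 to 9.35 (2.62-fold). Gadd45a, a stress-induced gene that acts on the cycle, was low in RIIIS/J at 39.3 against 85.0 to 210 (2.16-fold).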

How the data were processed

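Liver RNA of 5 strains was hybridised to 1 Affymetrix Mouse430_2 array each. The authors deposited intensity values on a linear scale, for which the submitters' processing notes name GCOS and GCRMA, whose versions, and a genome build, are not given in the sources used here. Of 45101 probe sets, 64 were controls, 34970 had 1 gene by the platform annotation, 920 several and 9211 none, and those with 1 gene were used.

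Intensities were converted to log2, the probe set with the highest mean log2 value was taken per gene, and lower values were set to the floor. Exactly equal values on 2 or more arrays occurred in the chosen probe sets of 14 of the genes. No test was run and the spread between animals is unknown. The comparisons were each strain against the nearest of the others and pairs of strains, and group medians use a strain's deviation from the mean of the others.

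The genes, lists, motifs and settings were chosen with earlier results of these data known. Genes apart in any strain were named with their values, as were at most the 8 further cell cycle genes with the largest gap per strain and direction. The second Top2a probe set, the neighbours and the strains' ranges were added after values were seen. Alternatives were the mean of probe sets, removal of shared probe sets, a floor at the 99th percentile, no floor, quantile normalization, a 4-fold threshold, comparison with C57BL/6J alone and omission of arrays. The steps were tested on simulated data. Genotyping data were not used here. Python 3.11.15, numpy 2.4.6, pandas 2.3.3 and matplotlib 3.10.9 were used.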

Additional observations from a re-analysis of the deposited data

How the results depend on the processing

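Over the 23 calls of single genes, 178 values under other settings stayed past the threshold in the same direction, 30 missed it and 0 turned. Settings in which a gene was not detected or had no probe set gave no value and are not counted. With the floor at 28.2 this was so for Aurka, Ccnb2 and Ccne2, whose FVB/NJ values of 17.7, 25.8 and 23.2 lie under it. Further detected probe sets read alone gave 11 values past the threshold and 8 that missed it. The calls of Pttg1 and Spc25 held in 10 of 10 settings each, although Spc25 has no value without probe sets named _s_at, _x_at or _a_at. The low calls were less steady: Cdt1 in RIIIS/J held in 5 of 9, Rrm2 in BALB/CByJ in 7 of 11 and Mcm6 in BALB/CByJ in 9 of 11. With the mean of all probe sets the median FVB/NJ deviation of replication genes was 1.11 (main value 1.88), and there were 0 low genes in BALB/CByJ and 0 in RIIIS/J. Without probe sets named _s_at, _x_at or _a_at that median was 1.41, with 0 high and 1 low in BALB/CByJ and 0 low in RIIIS/J. With the floor at intensity 28.2 the FVB/NJ median of all the genes was 1.44 in place of 1.01, with 1 low gene in BALB/CByJ and 0 in RIIIS/J, and with no floor that of mitosis genes was 0.32 in place of 0.71. The count of genes high in FVB/NJ was 18, and 12 with the mean of all probe sets, 13 with the floor at 28.2, 14 without shared probe sets, 16 with quantile normalization and 10 at 4-fold, where 0 were low in BALB/CByJ or RIIIS/J. Without FVB/NJ the medians of all the genes were -0.054 in BALB/CByJ, 0.00081 in NZW/LacJ and -0.0024 in RIIIS/J, in place of -0.31, -0.25 and -0.32. Those of mitosis genes were 0.00081 in NZW/LacJ and -0.012 in RIIIS/J, and those of replication genes -0.029 in BALB/CByJ, 0.14 in C57BL/6J and 0.0043 in RIIIS/J. Against C57BL/6J alone the medians of all the genes were -0.036 in BALB/CByJ, -0.020 in NZW/LacJ and -0.027 in RIIIS/J, those of mitosis genes -0.047, -0.0098 and -0.026, and those of replication genes -0.014 in BALB/CByJ and -0.013 in RIIIS/J. The low counts were then 4 in BALB/CByJ, 1 in FVB/NJ, 3 in NZW/LacJ and 4 in RIIIS/J. In alternatives chosen after seeing the data, NZW/LacJ had 1 low gene without RIIIS/J. Without both FVB/NJ and RIIIS/J the medians were -0.051 in BALB/CByJ and 0.0042 in NZW/LacJ for all the genes, 0.0042 in NZW/LacJ for mitosis genes, and -0.033 in BALB/CByJ and 0.21 in C57BL/6J for replication genes, with 2 high genes in C57BL/6J and 1 low in NZW/LacJ. Apart from the settings that leave out genes or arrays or alter the threshold, the cause was not tested. No paired analysis was possible because there was a single array for each strain. Signal near the floor limits 6 genes detected in FVB/NJ alone, and the median difference between 2 probe sets of the same gene was 0.22 on the log2 scale.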
